A study of Mus musculus with 8 samples.

Results

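The cells described here were the Dntt and Flt3 positive progenitors of the mouse bone marrow, 646 of 10046 kept cells in a single-cell RNA-seq series of the response to interferon alpha (IFNα). A cell was kept if it carried 1 hashtag, showed 700 or more genes and had no more than 5% of its counts from mitochondrial genes. It was gated as Dntt and Flt3 positive when it held at least 1 unique molecular identifier (UMI, a count of 1 captured transcript) of Dntt and at least 1 of Flt3, no UMI of the erythroid factor gene Klf1 or of the platelet receptor gene Gp1bb, and fewer than 5 UMIs of the neutrophil elastase gene Elane per 10000 UMIs of the cell. The gate used measured values, so the levels of these 5 genes are descriptions and were not tested.

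Wildtype mice of 12 to 14 weeks were injected under the skin with recombinant mouse IFNα at 50000 IU for every 20 g of body weight and analysed after 3, 24 or 72 h, and control mice received 100 µl of PBS. At each of these 4 time points, lineage-negative, c-Kit-positive marrow cells of 4 mice, to which extra CD150+ CD48- CD34- cells of the same compartment had been added, were tagged with antibody-coupled barcodes (hashtags) and pooled into a single 10x Genomics 3′ library. The mouse was therefore the replicate, and the library and the time point cannot be told apart. No barcode was gated in more than 1 library. Before filtering, 9 to 69 barcodes occurred in both libraries of a pair, and among kept cells at most 1 did. Whether a gated barcode was among these was not counted. The added stem cell fraction sets part of every share of cells given here.

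Dntt encodes terminal deoxynucleotidyl transferase, which adds untemplated nucleotides when antigen receptor genes are joined, and Flt3 encodes the receptor tyrosine kinase that lymphoid and dendritic progenitors need. Multipotent progenitors that express both, often called lymphoid-primed multipotent progenitors, still lack receptors of mature lymphocytes and can yield lymphoid and myeloid cells. Type I interferon binds the receptor chains encoded by Ifnar1 and Ifnar2, and signalling from this receptor then turns on interferon-stimulated genes, among them the feedback inhibitors Usp18 and Socs1.

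The gate held 181 of 2474 kept cells in the control library, 75 of 1661 at 3 h, 232 of 3462 at 24 h and 158 of 2449 at 72 h. Cells with a single Dntt UMI made up 19.3% of the gated control cells, 32% at 3 h, 16.4% at 24 h and 23.4% at 72 h, and the median number of Dntt UMIs was 7, 3, 7 and 5 in this order. Depth was lowest at 3 h, with a median of 11592 UMIs per gated cell against 15463 in the control, 19949.5 at 24 h and 14895.5 at 72 h. As a measure of free RNA, among erythroid cells with at least 3 Klf1 UMIs, 0.433% of 231 control cells (Wilson 95% interval 0.0765 to 2.41%, median depth 28509 UMIs) held a Dntt UMI, against 10.4% of all kept control cells. At 3 h, 0 of 95 such erythroid cells held one, which allows a share of up to 3.16% by a limit of 3 counts (Wilson upper limit 3.89%). The Dntt share was 1.01% at 24 h and 0.529% at 72 h, and Flt3 UMIs were in 0.433% of these erythroid cells without IFNα, in none of the 95 after 3 h, in 2.02% after 24 h and in 1.59% after 72 h, against 15.7 to 22.8% of all kept cells. Control mouse 4 had 58 kept cells and 2 gated cells and entered no test, which left 3 control mice and 4 mice at each later time.

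In the 3 control mice, Satb1, which encodes a chromatin organiser of early lymphoid progenitors and lies at chr17:51736187-51833290 (mm10), stood at 155 ± 25.6 CPM (UMIs scaled to an equal total for every mouse; SD, n = 3) in gated cells against 20.3 ± 2.48 CPM in all other kept cells. The orphan receptor gene Gpr171 (chr3:59096448-59101821) stood at 119 ± 36.6 CPM against 23.4 ± 1.20 CPM. On the log2 scale with 5 CPM added to each value, the differences were 2.65 and 2.08, the fifth and the 12th of 3069 genes that reached 50 CPM. Dntt itself (chr19:41029275-41059525) and Flt3 (chr5:147330741-147400489) were the first and the third by the rule. Wfdc17, encoding a small secreted protein with a whey acidic protein domain, was the second, at 270 ± 94.7 against 12.8 ± 4.22 CPM. Il12a, which encodes a subunit of interleukin 12, and H2-Ob, a class II-like chain, were also among the 12 highest. Notch1, the receptor gene that directs T lineage choice, differed by 1.75, Mef2c, a lymphoid transcription factor gene, by 1.66, and the surface antigen gene Cd34 by 1.56. All of these are descriptions of cells that were picked by Dntt and Flt3.

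**Figure D1:**
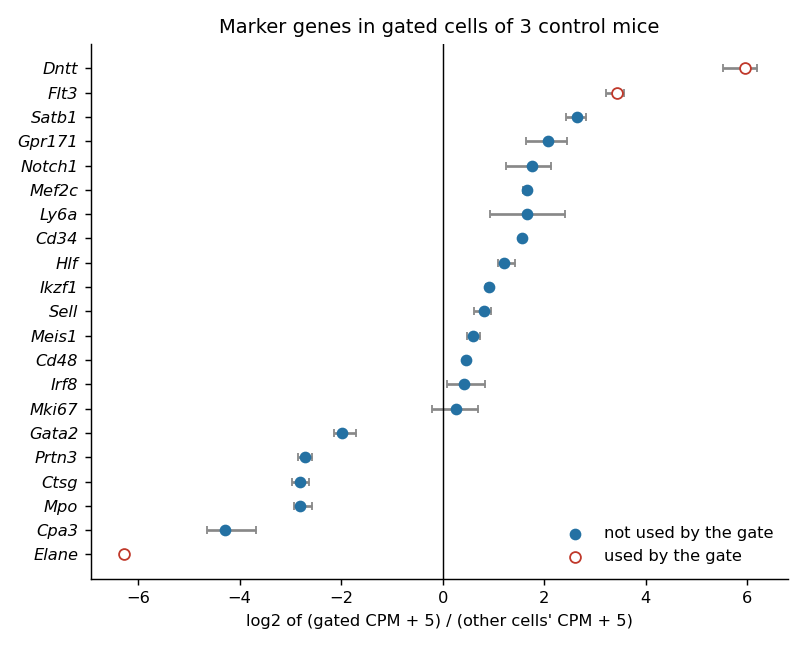
Each point is the mean over 3 control mice of the log2 ratio of a gene's level (CPM + 5) in gated cells over all other kept cells of the same mouse, and the line spans the lowest and highest mouse. Open points are genes the gate used; Satb1 and Gpr171 lie at 2.65 and 2.08, and Mpo, Ctsg and Prtn3 lie between −2.81 and −2.70.

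UMIs of the granule genes were low but not absent in gated cells, and the part of free RNA in them was not measured. Mpo, the myeloperoxidase gene, stood at 559 ± 70.2 CPM in gated control cells against 3947 ± 271 CPM in the other cells, and Prtn3 and Ctsg, which encode serine proteases of the primary granule, differed by −2.70 and −2.81 on the log2 scale. Elane UMIs remained in 120 of the 181 gated control cells, below the limit of the gate. They were in 15 of 75 gated cells at 3 h, 107 of 232 at 24 h and 51 of 158 at 72 h. Cpa3, a mast cell protease gene, differed by −4.30. Stem cell genes went both ways. Hlf, a transcription factor gene of stem cells, stood at 117 ± 3.48 CPM in gated cells against 48.1 ± 7.75 CPM in the rest, and 53.6% of all gated cells held a Hlf UMI, whereas Gata2, a factor gene of stem and mast cells, differed by −1.98. Summed over all mice, Mecom stood at 18.7 CPM in gated and 18.8 CPM in other cells and Procr at 5.97 and 7.96 CPM. Of 9 committed B cell genes, Pax5, Ms4a1 and Fcmr were at 0 in every tested mouse, and the list summed to 62.0 ± 5.34 CPM in the control, of which Cd79b gave 57.4 CPM. Of 12 T and NK cell genes, Cd3e, Cd3g, Cd8a and Ncr1 were at 0, and the list summed to 196 ± 24.0 CPM in the control, of which Nkg7, a granule protein gene, gave 189 CPM.

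The members differed among themselves along the Dntt level. Il7r, the interleukin 7 receptor gene that marks the step to common lymphoid progenitors, was found in 28.0% of the 354 cells with 5 or more Dntt UMIs, in 2.53% of the 158 cells with 2 to 4 and in 0 of the 134 cells with 1 UMI, which allows a share of up to 2.24%. Median depth was 16791, 15975.5 and 13883.5 UMIs in this order. Within each library Hlf was lowest in the highest Dntt class, with 83.1, 152 and 179 CPM in the control, 65.5, 116 and 221 CPM at 3 h, 54.8, 77.6 and 113 CPM at 24 h and 78.3, 104 and 131 CPM at 72 h from the highest to the lowest class. Mpo stood at 366, 759.7 and 899 CPM in the control, 168, 507 and 366 CPM at 3 h, 282, 656 and 1139 CPM at 24 h and 229.9, 443.5 and 951 CPM at 72 h, so that the lowest class was not the highest in Mpo at 3 h. Satb1 stood at 196, 107 and 82.1 CPM in the control, 117, 83.9 and 146 CPM at 3 h, 154, 86.0 and 64.8 CPM at 24 h and 159.6, 143 and 129 CPM at 72 h, and at 3 h its lowest Dntt class was the highest. Just outside the gate, the 190 cells with a Dntt UMI but no Flt3 UMI had Satb1 at 84.9 CPM and Mpo at 618 CPM. The 987 cells with a Flt3 UMI but no Dntt UMI had Satb1 at 53.7 CPM and Mpo at 1172 CPM, and the 10 cells that only the Elane limit kept out had Mpo at 3646 CPM. The 15 cells that only a Klf1 or Gp1bb UMI kept out had Satb1 at 110 CPM and Mpo at 327 CPM. All gated cells together had 136 and 494 CPM. Il7r was found in 33.3% of these 15 cells and in 15.9% of all gated cells. These sums pool cells of all mice, and the part of depth in them was not tested.

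The first comparison asked whether the share of gated cells changed. In control mice 1 to 3, gated cells were 6.05% (50 of 827), 8.12% (62 of 764) and 8.12% (67 of 825) of kept cells. At 3 h the shares were 3.03% (10 of 330), 4.10% (15 of 366), 5.38% (33 of 613) and 4.83% (17 of 352). Every 3 h mouse lay below each of these 3 control mice, although the Wilson 95% intervals of single mice overlapped, as with 1.65 to 5.49% in 3 h mouse 1 and 4.62 to 7.88% in control mouse 1, and these intervals cover counting error only. The mean was 7.43% ± 1.20 (SD, n = 3) in the control and 4.34% ± 1.02 (n = 4) at 3 h, a difference of −3.09 percentage points with a two-sided exact permutation p of 0.0286, the smallest that 3 against 4 mice can give. Adjusted over the 3 time points the p was 0.0857, so the difference did not pass the threshold of 0.05. Control mouse 4, with 2 of 58 cells gated (3.45%), lay below 3 of the 4 mice at 3 h, and with it included the difference was −2.10 percentage points (exact permutation p = 0.143, 4 against 4 mice).

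At 24 h the shares were 8.32%, 5.40%, 6.49% and 7.53%, and at 72 h they were 6.45%, 9.61%, 6.21% and 4.01%. Both ranges overlapped that of the control. The means were 6.94% ± 1.27 at 24 h and 6.57% ± 2.30 at 72 h, with exact permutation p = 0.6 and 0.571 (n = 3 control and 4 treated mice; adjusted p = 0.6 for both). With every cell thinned to 5000 UMIs, the 3 h and control means were 2.30% and 3.84%, and 3 of the 4 mice at 3 h lay below every control mouse (exact permutation p = 0.0857). Fewer detected Dntt molecules per cell and fewer cells of this kind cannot be told apart from a UMI gate.

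**Figure D2:**
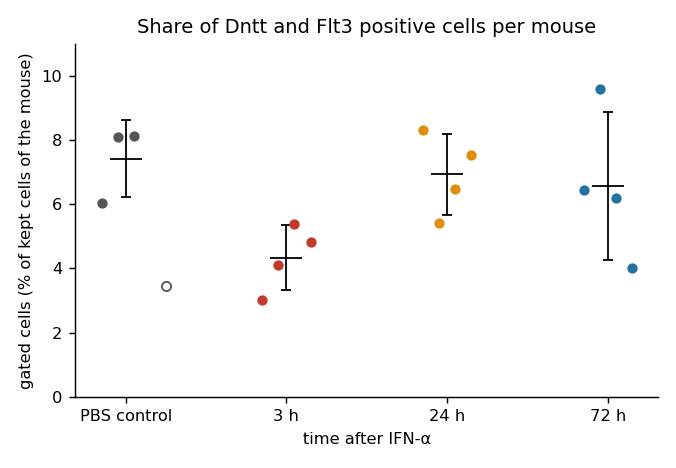
Gated cells as a percentage of the kept cells of each mouse (points), by time after IFNα, with the mean and SD of the mice that entered the test. The open point is control mouse 4 with 58 kept cells, which was not tested; the 4 mice at 3 h lie between 3.03 and 5.38% and the 3 tested control mice between 6.05 and 8.12%.

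The second comparison asked which genes changed in the gated cells. Raw counts were summed per mouse, which gave 118625 to 1581002 UMIs over 10 to 69 cells, and 7640 genes were tested with the quasi-likelihood test of edgeR. A gene was called at a Benjamini-Hochberg adjusted p under 0.05 with a log2 fold change beyond 1 in size. At 3 h, 372 genes were called (4.87% of those tested), 323 of them higher (4.23%) and 49 lower (0.641%). At 24 h, 66 genes were called (0.864%), with 52 higher (0.681%) and 14 lower (0.183%). At 72 h, 56 genes were called (0.733%), with 35 higher (0.458%) and 21 lower (0.275%). The 3 time points share the same control mice. Scaling by library size alone moved the centre of the log2 fold changes (their median over all tested genes) by 0.134 at 3 h, from −0.05 to −0.18, and gave 273 higher and 142 lower genes there, so that 65.8% of the called genes were higher in place of 86.8%. With DESeq2 and its size factors, all 40 genes called at 24 h were higher, against 78.8% here.

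Interferon-stimulated genes rose almost as a whole at 3 h. Of 66 tested members of a list of 70 such genes, 64 were called higher and none lower at 3 h, where 4.23% of all genes were called higher, and their median log2 fold change was 3.34 beside −0.05 over all genes. Irf1 and Trim25, with log2 fold changes of 0.57 and 0.74 and adjusted p = 0.118 and 0.125 by edgeR, were the 2 that were not called. Ifit3, which encodes an RNA-binding antiviral protein, stood at 21.7, 0 and 5.41 CPM in the control mice and at 518, 651, 739 and 734 CPM at 3 h. Rsad2, encoding the antiviral enzyme viperin, stood at 7.59, 6.86 and 5.41 CPM against 579, 381, 509 and 391 CPM. Every 3 h mouse lay far above every control mouse for both genes. The log2 fold changes were 6.34 ± 0.27 (SE) for Ifit3 and 6.10 ± 0.24 for Rsad2 (edgeR, adjusted p = 9.02e-20 and 6.99e-22).

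Mnda and AI607873 had the largest fitted rises at 3 h, and since neither had a UMI in the 3 control mice, their rises are known as lower bounds and cannot be ranked against the others. Mnda, which belongs to the Ifi200 family of DNA sensors, stood at 112, 146, 20.7 and 88.1 CPM at 3 h, at least 97.8-fold higher than a floor of 3 counts over the control group. AI607873 stood at 130, 84.1, 33.6 and 73.4 CPM, at least 85.5-fold higher. The chemokine gene Cxcl10 stood at 164, 409, 173 and 171 CPM against 3.25, 0 and 0 CPM. Mouse 2 was the high mouse for Cxcl10, and no mouse at 3 h overlapped the control. Ifit1bl1, Ifi204, Pydc3, Mx1 and Ifit1 completed the 10 largest rises, with log2 fold changes from 5.90 for Ifit1 to 7.20 for Ifit1bl1 (edgeR, adjusted p of 6.47e-10 or less). Ifi204, Mnda and Pydc3 are members of one gene family, and Ifit1 and Ifit1bl1 of another, so that shared reads could move counts between them, as between Ifit3 and its near-identical copy Ifit3b.

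The transcription factors that interferon signalling uses recognise a DNA element with repeated GAAA. The letters GAAA, then any 2 bases (NN), then GAAA again were therefore searched on both strands in the 250 bases before the gene start in the promoter table of RefSeq (GRCm38.p6). Of the 10 largest rises at 3 h, 5 had an entry there and each of these 5 held the letters. They occurred in 54 of 242 genes called higher at 3 h that had an entry (22.3%), in 3 of 39 called lower (7.69%), in 214 of all 5942 tested genes with an entry (3.6%) and in 2.98% of all 32851 promoter windows. None of 22 listed lymphoid priming genes with an entry held them, which says only that these letters are not in this window. Promoters of 4 of the largest rises and of Isg15 are shown 5′ to 3′ in the direction of the gene, each ending at the base before its start, with every match in capitals.
Cxcl10, chr5:92348890-92349139, minus strand: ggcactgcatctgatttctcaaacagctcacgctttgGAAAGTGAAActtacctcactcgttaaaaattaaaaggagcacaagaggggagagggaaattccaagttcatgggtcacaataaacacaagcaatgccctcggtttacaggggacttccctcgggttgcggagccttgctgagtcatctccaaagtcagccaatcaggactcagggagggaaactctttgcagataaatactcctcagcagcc
Ifit3, chr19:34583279-34583528, plus strand: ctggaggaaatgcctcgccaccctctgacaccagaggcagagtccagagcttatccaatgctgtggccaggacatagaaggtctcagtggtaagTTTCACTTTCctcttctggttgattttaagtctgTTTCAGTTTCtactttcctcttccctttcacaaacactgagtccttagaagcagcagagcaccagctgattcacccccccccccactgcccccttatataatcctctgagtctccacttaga
Rsad2, chr12:26456453-26456702, minus strand: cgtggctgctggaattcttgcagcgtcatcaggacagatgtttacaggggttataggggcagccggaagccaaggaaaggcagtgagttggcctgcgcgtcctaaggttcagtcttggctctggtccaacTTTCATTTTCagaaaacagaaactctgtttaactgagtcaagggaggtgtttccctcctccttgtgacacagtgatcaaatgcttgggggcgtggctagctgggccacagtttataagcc
Ifit1, chr19:34640639-34640888, plus strand: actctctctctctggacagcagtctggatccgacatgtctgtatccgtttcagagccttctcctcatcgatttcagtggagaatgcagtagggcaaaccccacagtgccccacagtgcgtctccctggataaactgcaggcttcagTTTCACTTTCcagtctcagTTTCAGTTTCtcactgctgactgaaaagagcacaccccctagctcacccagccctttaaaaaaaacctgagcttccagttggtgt
Isg15, chr4:156200819-156201068, minus strand: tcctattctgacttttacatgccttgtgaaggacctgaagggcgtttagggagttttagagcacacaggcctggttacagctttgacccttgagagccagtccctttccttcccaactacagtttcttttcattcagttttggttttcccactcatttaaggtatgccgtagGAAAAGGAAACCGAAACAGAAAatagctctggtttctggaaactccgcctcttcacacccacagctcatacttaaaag

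In Ifit3 the matches begin 156 and 122 bases before the start and in Ifit1 104 and 85 bases before it, in each case read on the opposite strand. Those of Isg15 overlap and begin 78, 72 and 66 bases before the start. Cxcl10 and Rsad2 hold 1 match each, at 213 and 120 bases. A match is a description of the sequence and not a binding site.

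The receptor genes were not called. Ifnar1 and Ifnar2 had log2 fold changes of 0.03 ± 0.35 and −0.06 ± 0.18 at 3 h (adjusted p = 0.988 and 0.909, edgeR), whereas the signalling genes Stat2 and Irf9 rose by 2.91 and 1.32. Of the feedback genes, Usp18, which encodes a protease that blocks the receptor, rose by 5.25 ± 0.22, Socs1, a kinase inhibitor gene, by 3.39 ± 0.32, and Isg15, which encodes a ubiquitin-like modifier, by 5.49 ± 0.16. Isg15 stood at 38, 25.7 and 59.5 CPM in the control and at 1615, 1980.0, 1920.2 and 1820.0 CPM at 3 h. All 3 feedback genes tested were called higher, beside 4.23% of all genes, with no overlap for Isg15.

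**Figure D3:**
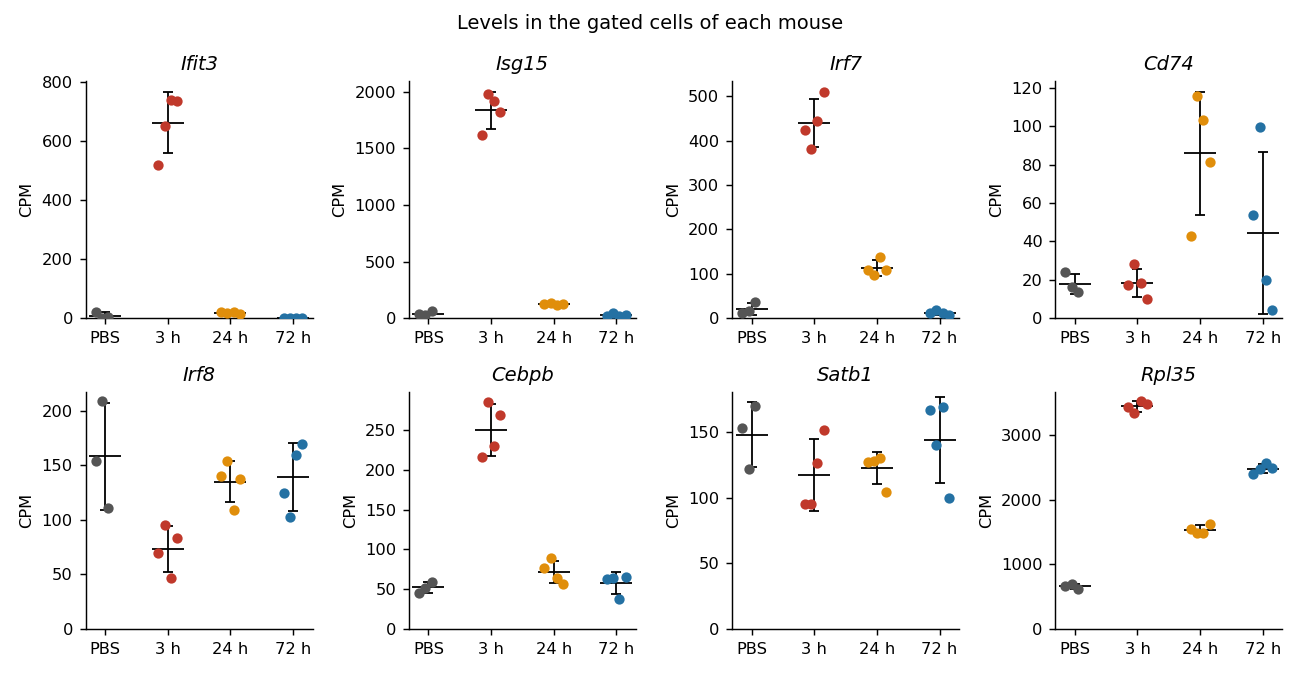
Level (CPM, scaled by the trimmed mean of M-values) of 8 genes in the gated cells of each mouse (points) with the mean and SD of 3 control mice and 4 mice per later time. Ifit3, Isg15, Irf7 and Cebpb peak at 3 h, Irf8 is lowest there, Cd74 is above the control in all 4 mice at 24 h, Satb1 overlaps at all times, and Rpl35 is above the control in every treated mouse.

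Of the lymphoid priming list, none of the 20 tested members, of 28 listed, was called higher or lower at 3, 24 or 72 h with edgeR, against 4.87%, 0.864% and 0.733% of all genes, and DESeq2 called none either, although it gave no adjusted p for 6 of the 20 at 24 and 72 h. At an unadjusted p under 0.05 there were 5, 4 and 2 members. The median log2 fold changes were −0.14 at 3 h, −0.00 at 24 h and 0.17 at 72 h. Dntt, a gate gene and the most abundant of the list, was not tested. A cell without a Dntt or Flt3 UMI is outside the gate. A loss of priming that took these UMIs away can therefore not be seen in the list. Satb1 stood at 153, 122 and 170.3 CPM in the control mice, at 95.01, 95.4, 127 and 152 CPM at 3 h, at 127, 128, 131 and 104 CPM at 24 h and at 167, 141, 169.6 and 99.6 CPM at 72 h. All groups overlapped, and the log2 fold changes were −0.29 ± 0.19, −0.28 ± 0.13 and −0.01 ± 0.14. Il7r stood at 13.02, 30.9 and 28.8 CPM in the control and at 8.64, 16.8, 10.3 and 34.2 CPM at 3 h, again with overlap (adjusted p = 0.675, edgeR). Hhex, a homeobox gene of early lymphoid progenitors, was lower at 3 h by adjusted p alone, with a log2 fold change of −0.60 ± 0.19 (adjusted p = 0.0422, edgeR), and Mef2c was higher at 72 h by 0.38 ± 0.11 (adjusted p = 0.0433). The standard errors of the 3 h log2 fold changes were 0.19 for Satb1 and 0.59 for Il7r. A change under the log2 limit of 1 could not be called for either gene. For Il7r, with the larger error, changes beyond that limit could be missed as well. With every cell thinned to 5000 UMIs, 15 members could be tested, of which Notch1 and Runx1 were called lower at 3 h (adjusted p = 0.0497 and 0.0443, edgeR), where 1 mouse was left and was assumed to vary like the other groups, and Hhex was called lower at 24 h (adjusted p = 0.0211). The list's median was 0.00 at 3 h without 3 h mouse 3, −0.16 at 24 h without 24 h mouse 3, and 0.03 at 72 h without 72 h mouse 2 or 0.07 without control mouse 1.

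Among myeloid genes, 2 transcription factors moved in opposite directions at 3 h. Irf8, which encodes the factor of dendritic and monocytic fate, stood at 154, 209 and 111 CPM in the control and at 69.1, 95.4, 46.5 and 83.2 CPM at 3 h, and no mouse overlapped. Its log2 fold change was −1.21 ± 0.25 (adjusted p = 0.000612, edgeR), and the call was lost without control mouse 2 or 3 h mouse 3, with a limit of at least 2 Dntt UMIs and with thinned cells. Cebpb, the factor gene of emergency myelopoiesis, stood at 45.6, 51.4 and 59.5 CPM against 216, 286, 230.0 and 269 CPM, a log2 fold change of 2.25 ± 0.18 (adjusted p = 9.91e-13). At 24 and 72 h neither gene was called. Irf8 and Cebpb were the 2 called of the 16 tested genes of the granulocyte and monocyte list at 3 h, beside 4.87% of all genes, and the list's median was −0.57 (−0.33 without 3 h mouse 4 and −0.21 with at least 2 Dntt UMIs), and Mpo had a log2 fold change of −0.73 (adjusted p = 0.0224). The summed level of this list was 2994 ± 265 CPM in the control and 2280.5 ± 224 CPM at 3 h, with Prtn3 as its most abundant gene.

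**Figure D4:**
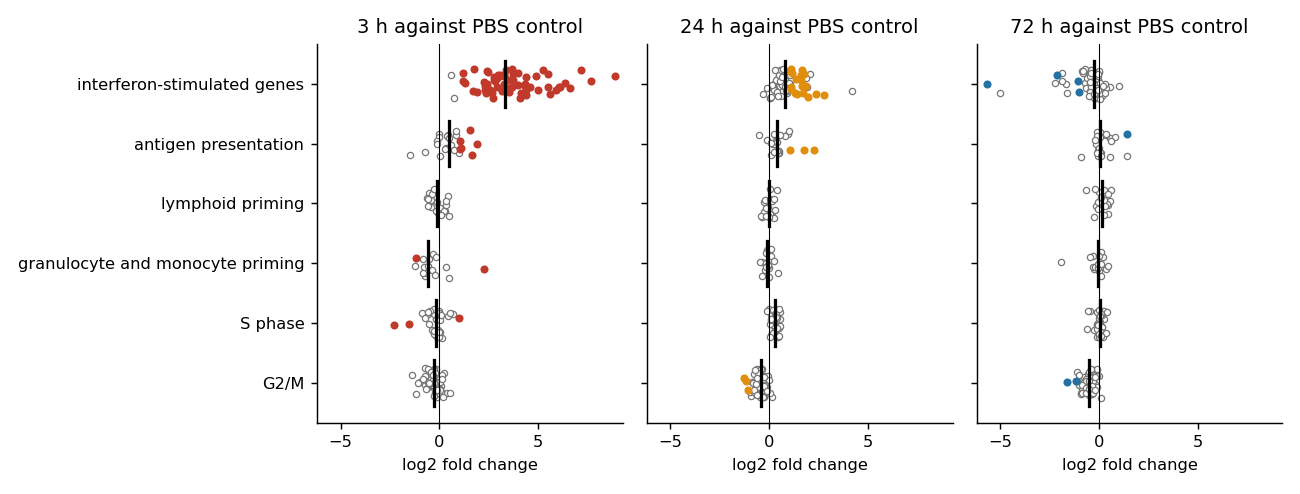
Log2 fold change of each tested gene (points) of 6 lists in the gated cells at 3, 24 and 72 h against the control; filled points were called and the black bar is the list's median. The interferon-stimulated genes lie at a median of 3.34 at 3 h, 0.82 at 24 h and −0.26 at 72 h, and no gene of the lymphoid priming list is filled.

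The falls at 3 h were smaller than the rises. Slpi, encoding a secreted protease inhibitor, stood at 72.7, 92.6 and 30.6 CPM in the control and at 17.3, 5.61, 20.7 and 4.89 CPM at 3 h. Dhrs3, a retinal reductase gene, stood at 65.1, 66.0 and 64.9 CPM against 25.9, 5.61, 18.1 and 14.7 CPM. Neither gene overlapped, and the log2 fold changes were −2.26 ± 0.56 and −2.04 ± 0.30 (adjusted p = 0.00456 and 1.92e-06, edgeR). The immediate early gene Fosb, the ribonucleotide reductase gene Rrm2, Imp4, Irf8, Med13l, Wdr89, Cd93 and Mkrn1 completed the 10 largest falls, with log2 fold changes between −1.05 and −2.01. With at least 2 Dntt UMIs, which also left 3 mice at 3 h in place of 4, the calls of Slpi, Rrm2, Irf8, Med13l, Cd93 and Mkrn1 were lost, and with DESeq2 that of Fosb. With thinned cells, which left 1 mouse at 3 h, those of Dhrs3, Fosb, Rrm2, Imp4, Irf8, Med13l and Mkrn1 were lost. The call of Fosb was also lost without control mouse 3, 3 h mouse 1, 3 h mouse 2 or 3 h mouse 3. Cd93, a surface marker of early progenitors, fell from 118 CPM on average to 58.0 CPM.

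The antigen presentation genes called at 3 h were of the class I pathway, while the class II genes called were Cd74 and H2-Eb1 at 24 h and H2-Eb1 alone at 72 h. At 3 h, 6 of 23 tested members were called higher, beside 4.23% of all genes, and 3 with library size alone or with at least 2 Dntt UMIs. They were the class I genes H2-Q4 and H2-T22, the peptide transporter and loading genes Tap1 and Tapbp, the immunoproteasome gene Psmb10 and the class I transactivator gene Nlrc5. The median log2 fold change over the 23 genes was 0.51, and H2-T22 rose by 1.66 ± 0.14 and Tapbp by 1.56 ± 0.18. At 24 h, 3 members were called higher, beside 0.681% of all genes, the class I gene H2-Q6 and the class II genes Cd74 and H2-Eb1. The call of H2-Q6 was lost with library size alone, with thinned cells, without cells over 2 times the median UMIs, and without control mouse 1, control mouse 2, 24 h mouse 2 or 24 h mouse 3. Cd74 was called in all 25 alternatives and H2-Eb1 in 23 of 24, the exception being DESeq2, which gave it no adjusted p. With at least 2 Dntt UMIs or the replicate block the count was 5, with H2-Aa and H2-Q7 added. Cd74, which encodes the invariant chain of class II molecules, stood at 23.9, 16.3 and 13.5 CPM in the control, at 17.3, 28.0, 18.1 and 9.79 CPM at 3 h and at 43.0, 116, 103 and 81.3 CPM at 24 h. Every 24 h mouse lay above every control mouse, and the log2 fold change was 2.28 ± 0.36 (adjusted p = 3.32e-05, edgeR), against 0.04 ± 0.75 at 3 h. At 72 h Cd74 ranged from 4.53 to 99.6 CPM (adjusted p = 0.0628). H2-Eb1 rose by 1.76 ± 0.34 at 24 h and by 1.40 ± 0.40 at 72 h, from 6.63 CPM in the control to 22.7 and 17.1 CPM. The 72 h call of H2-Eb1 (adjusted p = 0.0437, edgeR) was lost with library size alone, without cells over 2 times the median UMIs, and without any 1 control mouse, 24 h mouse 3, 72 h mouse 1, 72 h mouse 2 or 72 h mouse 3, and DESeq2 gave no adjusted p. These class II genes are also made by dendritic and B cells. The committed B cell list summed to 62.0 ± 5.34 CPM in the control and 59.4 ± 2.95 CPM at 24 h. The plasmacytoid dendritic cell list of 8 genes, of which Klk1 was at 0, summed to 452 ± 41.8 CPM in the control, 1474 ± 95.5 CPM at 3 h and 745 ± 21.7 CPM at 24 h, of which the interferon-stimulated gene Bst2 gave 247, 1375 and 535 CPM. The part of other cell types in the class II result was not tested.

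At 24 h, 19 of the 66 interferon-stimulated genes were still called higher and none lower, beside 0.681% of all genes called higher, with a median of 0.82. With cells thinned to 5000 UMIs the count was 6 of 56. Ifi27l2a, an interferon-induced mitochondrial protein gene, stood at 56.4, 67.7 and 61.3 CPM in the control, at 423, 459.9, 165 and 396 CPM at 3 h and at 495, 479.5, 389.6 and 320.2 CPM at 24 h. Irf7, encoding the factor that amplifies interferon production, stood at 10.8, 15.4 and 36.9 CPM in the control, at 423, 381, 445 and 509 CPM at 3 h and at 109, 97.2, 138 and 108 CPM at 24 h. No 24 h mouse overlapped the control for either gene (log2 fold changes 2.75 ± 0.20 and 2.36 ± 0.21, adjusted p = 4.79e-13 and 1.12e-10, edgeR). Ly6a, which encodes Sca-1, rose by 2.77 ± 0.16 at 3 h and by 1.72 ± 0.14 at 24 h, and stood at 83.7 ± 29.8 CPM in the control, 576 ± 68.6 CPM at 3 h, 277 ± 11.2 CPM at 24 h and 68.7 ± 15.1 CPM at 72 h. Of the 10 largest rises at 24 h, Hist1h2ap, Cd74, Gstp1 and 7 listed interferon-stimulated genes (Ifi27l2a, Irf7, Ly6a, Ifi44, Isg15, Oasl2 and Xaf1) made up the set. With thinned cells the calls of Gstp1, Isg15, Oasl2 and Xaf1 were lost.

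By 72 h no interferon-stimulated gene of the list was called higher, and 4 were called lower than in the control, namely Ifit3, Cmpk2, Rnf213 and Rtp4. The median of the list was −0.26 (−0.42 without 72 h mouse 2 and −0.16 with at least 2 Dntt UMIs) beside −0.00 over all genes. Of all genes, 0.275% were called lower. The list's count was 1 without 72 h mouse 3 and 2 without control mouse 1, 72 h mouse 2 or 72 h mouse 4. It was 5 with DESeq2 and 6 with the likelihood ratio test of edgeR or with no filter on low counts. Rtp4, a chaperone gene with antiviral activity, stood at 53.2, 54.8 and 73.0 CPM in the control, at 518, 482, 563 and 494 CPM at 3 h and at 30.2, 51.3, 16.7 and 13.6 CPM at 72 h. The 72 h mice lay below the control mice without overlap, with a log2 fold change of −1.04 ± 0.24 (adjusted p = 0.00873, edgeR), and the call was lost with thinned cells and without control mouse 3, 72 h mouse 3 or 72 h mouse 4. With thinned cells the other 3 were not called either. In that setting 2 of 56 tested members of the list were called lower, with a median of −0.55. Rnf213, a large antiviral ubiquitin ligase gene, fell from 39.6 ± 4.65 to 19.5 ± 4.66 CPM. Ifit3 had 0 UMIs in all 4 mice at 72 h, at least 7.67-fold lower against a floor of 3 counts over the group, although control mouse 2 also had none.

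Cell cycle genes were called in small numbers. Of 49 tested genes of the G2/M list, none was called at 3 h (10 at an unadjusted p under 0.05), Ube2c, Cenpf and Plk1 were called lower at 24 h, and Ube2c and Cdca2 at 72 h, with list medians of −0.28, −0.43 and −0.52. Without control mouse 2 these medians were −0.13, −0.26 and −0.32. Over all genes, 0.183% were called lower at 24 h and 0.275% at 72 h. DESeq2 called none of the 49 at any time, although it gave no adjusted p for 16 of them at 24 h and 15 at 72 h. At 3 h, 3 were called lower without control mouse 1 or 3 h mouse 2, 2 without 3 h mouse 4, 1 without control mouse 3 or 24 h mouse 1, and 1 was called higher, with a median of 0.13, without 3 h mouse 3. Library size alone gave 2 lower at 3 h, no filter on low counts 2 of 52, and the likelihood ratio test of edgeR 1. With thinned cells, which left 1 mouse at 3 h, the median there was −1.07. The 24 h count was 7 without control mouse 1, 1 without control mouse 2 or 24 h mouse 4, and 0 with at least 2 Dntt UMIs or without cells over 2 times the median UMIs. The 72 h count was 0 without control mouse 2, 1 without control mouse 3, 72 h mouse 1 or 72 h mouse 2 or with at least 2 Dntt UMIs, 4 without 24 h mouse 1 or 72 h mouse 4, and 5 without 3 h mouse 3. It was 4 with library size alone and 5 of 52 with no filter on low counts. Ube2c, which encodes a ubiquitin-conjugating enzyme of mitotic exit, stood at 234, 323 and 235 CPM in the control, at 25.9, 381, 12.9 and 328 CPM at 3 h, at 194, 119, 69.9 and 66.3 CPM at 24 h and at 60.5, 51.3, 80.2 and 188 CPM at 72 h. Its 3 h mice fell on both sides of the control, and its 24 and 72 h mice lay below it. The calls of Ube2c (adjusted p = 0.0196 and 0.00873, edgeR) were absent with DESeq2, with the likelihood ratio test of edgeR, with at least 2 Dntt UMIs and without control mouse 2. Of 36 tested S phase genes, Hells rose at 3 h by 1.01 and Rrm2 and E2f8 fell by 1.52 and 2.30 on the log2 scale, beside 4.23% of all genes called higher and 0.641% lower. The call of Hells was lost with library size alone, DESeq2, the likelihood ratio test, no filter on low counts or the replicate block. It was also lost with at least 2 Dntt UMIs, thinned cells or no cells over 2 times the median UMIs. The call of Hells was absent without control mouse 3 or 3 h mouse 3 as well. The count of S phase genes called lower was 0 without 3 h mouse 4 and 1 without 3 h mouse 2, with DESeq2 or with at least 2 Dntt UMIs. None was called at 24 h, where the median was 0.28 (0.15 without 24 h mouse 4), or at 72 h, with 14 and 5 at an unadjusted p under 0.05. Of 15 tested genes of cell cycle entry and brakes, Ccnd2 and Btg2 were called at 3 h, beside 4.87% of all genes. The call of Btg2 held in 19 of 25 alternatives. The cyclin gene Ccnd2 rose at 3 h from 173, 175 and 182 CPM to 501, 611, 538 and 431 CPM, without overlap, by 1.56 ± 0.12.

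The 10 largest rises at 72 h held no listed interferon-stimulated gene. Hist1h2ap and Hist1h2ae, which encode histone H2A and share reads with other copies of their cluster, led with log2 fold changes of 2.78 ± 0.38 and 1.96 ± 0.22. Rpl35, encoding a protein of the large ribosomal subunit, stood at 669, 698 and 623 CPM in the control, at 3438, 3337, 3528 and 3479 CPM at 3 h, at 1555, 1483, 1492 and 1622 CPM at 24 h and at 2397, 2475, 2574 and 2485 CPM at 72 h. The groups were separate at all 3 times, with log2 fold changes of 2.38, 1.21 and 1.90, each with an SE of 0.06. Lsm7, Gstp1, Tmsb10, AY036118, Ktn1, Rps29 and Smim4 completed the 10 largest rises. The median transcript length of the 35 genes called higher at 72 h was 609 bases, against 1176 bases over all tested genes and 1343 bases for those called higher at 3 h, and the part of transcript length in these rises was not tested. Falls at 72 h were led by Ube2c, the lysosomal ribonuclease genes Rnaset2a and Rnaset2b, and Wdr89, with log2 fold changes of −1.60, −1.53, −1.24 and −1.42. Tuba1c, H1fx, Rps27rt and Rtp4 completed the falls that met the naming rule. With thinned cells the calls of Hist1h2ap, Gstp1, AY036118, Ktn1, Smim4, Rnaset2b and Rtp4 were lost, and with at least 2 Dntt UMIs those of Ube2c and Tuba1c. Rnaset2a and Rnaset2b are near-identical copies, and Rps27rt, which fell by 1.13, is a retrocopy of Rps27, so that reads could be split between copies.

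The third comparison asked whether the gated cells changed more or less than 2 other gates in the same mice. Stem-like cells (2551) held a Hlf UMI and no Dntt, Klf1 or Gp1bb UMI with Elane under the same limit. Mpo-positive cells (1187) held Flt3 and Mpo UMIs and no Dntt, Klf1 or Gp1bb UMI, with no limit on Elane. These 2 gates did not exclude each other, so a cell could be in both. Among the 987 cells just outside the gate with a Flt3 but no Dntt UMI, 63.4% held Hlf and 84.3% held Mpo. Gated cells differed from both gates by a Dntt UMI, and 53.6% of them held Hlf and 82.7% held Mpo. The difference of the changes was tested as an interaction with the mouse as a block. Against stem-like cells, edgeR called, by the same thresholds, 0 of 9237 genes (0%) for 3 h, 0 (0%) for 24 h and 1 (0.0108%) for 72 h, and at an unadjusted p under 0.05 there were 578, 354 and 357 genes. The likelihood ratio test of edgeR called 2, 0 and 1. By adjusted p alone, 1 gene differed at 24 h, Ifi27, an interferon-induced gene that was looked at after its values were seen. It stood at 179.7, 181 and 198 CPM in the control and at 155, 144, 160.4 and 140.1 CPM at 24 h in gated cells, and at 141, 148 and 165 CPM and then 209, 236, 222 and 231 CPM in stem-like cells. The 24 h mice lay below the control in gated cells and above it in stem-like cells, and the difference of −0.90 ± 0.13 (adjusted p = 5.99e-05, edgeR) did not reach the log2 limit of 1. The adjusted p stayed under 0.05 in 18 of 19 alternatives and was 0.1 with thinned cells. Across the 66 interferon-stimulated genes the median difference from stem-like cells was −0.07 at 3 h, −0.02 at 24 h and −0.17 at 72 h, and over all genes it was −0.07, −0.00 and −0.00. Wfdc17 was the called gene at 72 h. In gated cells it stood at 264.5 ± 91.3 CPM in the control and at 465 ± 164 CPM at 72 h, and in stem-like cells it stood at 47.0 ± 23.6 and 35.9 ± 11.02 CPM, a difference of 1.19 ± 0.23 (adjusted p = 0.0493, edgeR). This call was lost without any 1 of 8 mice, all control and 72 h mice and 24 h mouse 1.

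Against Mpo-positive cells, the 3 h contrast had 7 called of 8912 genes (0.0785%), the 24 h contrast 12 (0.135%) and the 72 h contrast 0 (0%), with 541, 702 and 394 genes at an unadjusted p under 0.05. The likelihood ratio test of edgeR called 17, 17 and 1. With single mice left out, 3 to 9 genes were called at 3 h and 2 to 13 at 24 h. Ms4a4c, encoding a membrane protein of the Ms4a family (chr19:11404770-11427246), differed most among the genes called at 3 h. It rose from 3.23, 2.57 and 5.35 CPM to 217, 180.0, 195 and 198 CPM in gated cells, and stood at 13.7, 20.4 and 16.1 CPM in the control and 92.3, 83.3, 75.1 and 88.1 CPM at 3 h in Mpo-positive cells. Gated cells started lower and ended higher in every mouse. The difference in log2 fold change was 3.39 ± 0.41 (adjusted p = 3.76e-07, edgeR) and was called without any 1 of the 15 mice.

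Pkib, a protein kinase A inhibitor gene, and Pyhin1, a member of the Ifi200 family, also rose more in gated cells at 3 h, by 1.61 ± 0.29 and 1.37 ± 0.28. Cebpb reached like levels, 246 ± 31.7 CPM in gated and 262 ± 18.5 CPM in Mpo-positive cells, from 51.8 ± 6.80 and 113 ± 11.2 CPM, a difference of 1.06 ± 0.19 (adjusted p = 0.0018). Rtp4 rose less, by −1.07 ± 0.24 (adjusted p = 0.0399), with 59.9 ± 10.7 and 505 ± 42.1 CPM in gated cells and 16.2 ± 6.35 and 292 ± 20.2 CPM in Mpo-positive cells. The calls of Ms4a4c and Cebpb were the only ones of the 7 that held without any 1 mouse. From stem-like cells at 3 h, Ms4a4c differed by 0.86 ± 0.63 and Cebpb by 0.83 ± 0.20 (adjusted p = 0.91 and 0.239, edgeR). Pyhin1 differed there by −0.60 ± 0.48 and Rtp4 by 0.07 ± 0.19 (adjusted p = 0.927 and 0.985, edgeR). These genes were not called against stem-like cells. The median difference from Mpo-positive cells over the 66 interferon-stimulated genes was −0.04 at 3 h, −0.38 at 24 h and −0.17 at 72 h. Over all genes it was −0.05, 0.00 and −0.00. The difference was positive for 28, 16 and 23 of the 66.

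At 24 h the largest difference of a gene above 50 CPM was that of Cd74, 2.88 ± 0.60 (adjusted p = 0.011, edgeR). Its level rose from 17.8 ± 5.33 to 86.3 ± 31.9 CPM in gated cells, whereas Mpo-positive cells had 89.5, 105 and 194 CPM in the control and 39.1, 31.6, 62.4 and 274 CPM at 24 h, with 1 mouse far above the others. Without control mouse 3 or 24 h mouse 2 the call was lost. In stem-like cells Cd74 stood at 105, 44.0 and 53.9 CPM in the control and at 230, 384, 465 and 337 CPM at 24 h, and the difference of the changes from gated cells was −0.14 ± 0.36 (adjusted p = 1.0, edgeR). Pyhin1 differed from Mpo-positive cells by 1.14 ± 0.28 at 24 h and from stem-like cells by −0.01 ± 0.18. The purinergic receptor gene P2ry14, Rtp4 and Rgs1, which encodes a regulator of G protein signalling, had the largest differences in the other direction among genes above 50 CPM, −1.21 ± 0.26, −1.20 ± 0.24 and −1.09 ± 0.26. P2ry14 stood at 55.5 ± 8.40 and 47.0 ± 4.90 CPM in gated cells and at 12.0 ± 1.24 and 24.0 ± 3.09 CPM in Mpo-positive cells. Rgs1 fell in gated cells from 73.8 ± 20.1 to 35.8 ± 15.6 CPM, a call that was lost with DESeq2, with at least 2 Dntt UMIs, with thinned cells, and without control mouse 2, control mouse 3 or 24 h mouse 1.

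**Figure D5:**
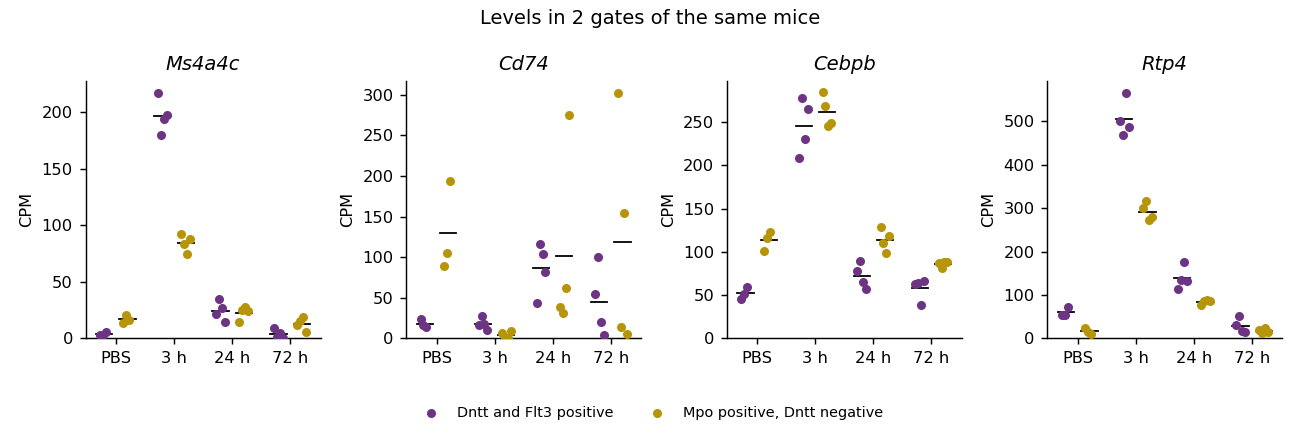
Level (CPM) of 4 genes in gated cells and in Mpo-positive, Dntt-negative cells of the same mice (points) by time after IFNα, with bars at the means. Ms4a4c is lower in gated cells of control mice and higher at 3 h, and Cebpb starts lower and reaches like levels. Rtp4 is higher in gated cells of control mice and also at 3 and 24 h. Cd74 spreads widely between mice in the Mpo-positive cells.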

How the data were processed

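Per the labels and the submitters' processing notes, the authors aligned reads to mm10 and counted UMIs with Cell Ranger 3.1.0, and assigned barcodes to mice by hashtag in Seurat. The deposited values were raw UMI counts per gene and cell. The gene annotation they used is not given in the sources used here. Hashtag multiplets and barcodes without a hashtag were left out, and no other doublet caller was run. Doublets within 1 mouse could remain. The kept cells held 23823015 to 75766639 UMIs per library.

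Counts of gated cells were summed per mouse (at least 10 cells) and fitted over all 4 time points with edgeR 4.0.16 (TMM scaling, quasi-likelihood test, Benjamini-Hochberg adjustment) in R 4.3.3, with DESeq2 1.42.0 as an alternative. CPM of gated against all other kept cells, of the Dntt classes and of cells just outside the gate were not TMM-scaled. All other levels are TMM-scaled CPM. Differences between gates were fitted with the mouse as a block. Shares were compared by exact permutation tests over mice in SciPy 1.17.1. No label says that mice of a group came from separate experiments. Named genes were, per time, the 10 largest called rises and falls without overlap and with at least 50 CPM in either group, passing over mitochondrial and unnamed genes, and, per difference between gates, the 3 largest in each direction above 50 CPM. Other genes named beside a list were picked with their values in view. The members and gene lists were chosen with earlier results of these data known. Coordinates are from GENCODE vM21. The fits were also run on simulated counts with large changes and the same spread for every gene. That run does not check small changes or changes of low genes.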

Additional observations from a re-analysis of the deposited data

Results flagged for a closer look

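In 145 groups of 4 mice, 6 held a mouse that stood apart from the other 3 by Dixon's criterion, 4.14%, where chance gives about 1 in 20. Cxcl10 at 3 h was 409 CPM in mouse 2 against 164 to 173 CPM in the others. Xaf1, an interferon-induced proapoptotic gene, was 363 CPM in 3 h mouse 1 against 476 to 489 CPM. Fosb at 72 h was 88.3 CPM in mouse 4 against 14.5 to 25.7 CPM. Med13l at 24 h was 77.9 CPM in mouse 3 against 48.2 to 51.4 CPM. Pydc3 at 72 h was 1.46 CPM in mouse 2, and Mx1 at 72 h was 1.51 CPM in mouse 3, with 0 UMIs in the other mice.

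The change after IFNα differed between gated cells and another gate, by the interaction test of edgeR, for 20 gene and time pairs. Values are gated minus other log2 fold changes. Against stem-like cells this was Wfdc17 at 72 h (1.19). Against Mpo-positive cells at 3 h, the gated cells rose more for Ms4a4c (3.39), Pkib (1.61), Pyhin1 (1.37), Grn, which encodes progranulin (1.14), Cebpb (1.06) and Ms4a6c (1.00), and less for Rtp4 (−1.07). At 24 h the differences were positive for Cd74 (2.88), H2-Eb1 (2.69), Ms4a4c (2.23), Ms4a4b (2.12), Pyhin1 (1.14) and the interferon gamma receptor gene Ifngr2 (1.06). They were negative for Ifi27 (−1.03), the mucin gene Muc13 (−1.09), Rgs1 (−1.09), Rtp4 (−1.20), P2ry14 (−1.21) and Slc26a11 (−3.14), the last with group means of 10.5 CPM or less in gated cells. Of these 20 differences, those of Ms4a4c and Cebpb at 3 h were called whichever mouse was left out.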

How the results depend on the processing

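None of the 51 named changes reversed under any alternative, and 39 were called whichever mouse was left out. With at least 2 Dntt UMIs 40 of them were called, and with cells thinned to 5000 UMIs 25 of the 45 that could be tested. Thinning gave 162, 23 and 21 called genes at 3, 24 and 72 h, over 3337 tested genes and with 1 mouse at 3 h, which is assumed to vary like the other groups. At least 2 Dntt UMIs left 3 mice at 3 h. DESeq2 called 40 genes at 24 h, where it gave no adjusted p for 3851 of 7640 genes (3407 at 72 h), and 85 were called at 72 h with no filter on low counts. Leaving out single mice gave 326 to 381, 50 to 69 and 48 to 61 genes.

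For differences from stem-like cells at 3 h, the likelihood ratio test called 2 genes, no filter 6 and thinning 1. No filter called 1 at 24 h and 2 at 72 h, where library size alone called 0. For differences from Mpo-positive cells at 3 h, the likelihood ratio test and no filter each called 17 and thinning 0. At 24 h no filter called 20 and thinning 0, and at 72 h the likelihood ratio test called 1 and no filter 6. Without single mice the ranges were 0 to 3, 0 to 0 and 0 to 1 for stem-like cells and 3 to 9, 2 to 13 and 0 to 2 for Mpo-positive cells. The 3 at 3 h came without 3 h mouse 1 or 4, and the 2 at 24 h without control mouse 3. The 24 h count was 7 without 24 h mouse 1 and 6 without 24 h mouse 3. The cause was not tested.

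With every mouse, control mouse 4 included, the share at 3 h differed from the control by −2.10 percentage points (exact permutation p = 0.143). Over kept cells without a Hlf UMI, gated cells with a Hlf UMI were left out as well. The mean share was then 2.99% at 3 h and 5.37% in the control (exact permutation p = 0.0571, adjusted p = 0.171). In that setting the share at 24 h lay above the control by 0.3999 percentage points. With every mouse the share at 24 h lay above the control by 0.5047 percentage points and that at 72 h by 0.1389. Without single mice the differences ran from −3.78 to −2.66 at 3 h, from −1.18 to 0.0212 at 24 h (above 0 without 24 h mouse 2) and from −1.87 to −0.00338 at 72 h.

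Hashtag numbers did not pair the mice. Same-numbered mice correlated at −0.025 to 0.1 and others at −0.116 to 0.108, and 5 of 15 mice correlated best with their own number. With the replicate block, 366, 70 and 59 genes were called. The calls of Mkrn1 and Hells at 3 h, Plk1 at 24 h and Rnf213 and Pgk1 at 72 h were absent.

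The 3 h fits rest on 10 to 33 gated cells per mouse, so small changes of low genes there were not detectable at this depth.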

Other observations

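Among 84 tested ribosomal protein genes, a list chosen after values were seen, 12 were called higher at 3 h, 2 at 24 h and 3 at 72 h, and none lower, beside 4.23%, 0.681% and 0.458% of all tested genes called higher, with medians of 0.12, 0.05 and 0.17. Rpl35 was called at all 3 times. By adjusted p alone (edgeR), 42, 26 and 41 were higher and 16, 11 and 5 lower.

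The counts of the following lists stand beside the same shares of all genes called higher, and 0.641%, 0.183% and 0.275% called lower at 3, 24 and 72 h. Of 16 tested glycolysis genes, Hk2, which encodes a hexokinase, and Pgk1, a phosphoglycerate kinase gene, were called higher at 3 h, and Pgk1 also at 24 and 72 h, with log2 fold changes of 2.16, 1.25 and 1.02. The 72 h call of Pgk1 held in 13 of 25 alternatives. It was lost with library size alone, every mouse included, at least 2 Dntt UMIs, thinned cells or the replicate block. No cells over 2 times the median UMIs also lost it. So did leaving out control mouse 2 or 3, 24 h mouse 1, or 72 h mouse 1, 3 or 4. Of 18 purine synthesis genes, Pnp was called higher at 3 h and Nme2 lower at 72 h. Of 13 pyroptosis and necroptosis genes, the caspase gene Casp4, the cytokine gene Il18 and the death ligand gene Tnfsf10 were called higher at 3 h and none later. The cytokine receptor chain gene Il2rg was the called gene of 17 cytokine receptors, at 3 h. None of 13 homing and adhesion genes or 11 BCL2 family genes was called by edgeR at any time. At 3, 24 and 72 h, 2, 0 and 2 of the homing and 4, 1 and 0 of the BCL2 family genes had an unadjusted p under 0.05.

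Of 15 tested stem cell genes, Ly6a, Ifitm3 and Cish were called higher at 3 h and Ly6a and Ifitm3 at 24 h. Of these, Ly6a is also a listed interferon-stimulated gene. None of 5 erythroid and 3 megakaryocyte genes was called by edgeR, with 1 and 2 at an unadjusted p under 0.05 at 3 h. Of 3 plasmacytoid dendritic cell genes, Bst2, which encodes tetherin and is also a listed interferon-stimulated gene, rose at 3 and 24 h and Irf8 fell at 3 h.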
